A study of Mus musculus with 8 samples.

Results

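The Reg genes encode small secreted proteins with a C-type lectin fold, first known from regenerating islets and from the pancreatic juice of inflamed pancreas. The 6 mouse genes considered here, Reg1, Reg2, Reg3a, Reg3b, Reg3d and Reg3g, were chosen by symbol as a gene family. No value enters that rule, although the family was picked with earlier results of these data known. Of these, 4 (Reg1, Reg2, Reg3b and Reg3d) were among the 14126 genes of the deposited table, and Reg3a and Reg3g were not analysed here. Islets, the hormone-secreting cell clusters of the pancreas, were profiled by bulk RNA sequencing in 8 NOD/ShiLtJ mice, a strain prone to autoimmune diabetes, all 7 weeks old. The 4 libraries labelled WT carry the genotype IRE1αfl/fl (floxed alleles of Ern1, which encodes the endoplasmic reticulum stress sensor IRE1α), and the 4 labelled KO carry IRE1αβ-/-, a knockout of this gene whose β is not explained in the labels. The protocol, given alike for both groups, is a course of intraperitoneal tamoxifen on 5 consecutive days to switch on Cre recombinase. The promoter that drives Cre is not given in the sources used here. Enzyme digestion of the pancreas, a Histopaque gradient to remove exocrine tissue and picking by hand gave the islets.

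In the pancreas, Reg1 and Reg2 (lithostathines) and the Reg3 proteins are made mainly by acinar cells, the exocrine cells that secrete digestive enzymes, and several of them rise in injury and inflammation. Cytokines that act through STAT3, among them interleukins of the IL-6 and IL-22 families, are known inducers of Reg3 genes. Reg3b (pancreatitis-associated protein) and Reg3g also act as antibacterial lectins in the gut, and Reg3d is the mouse relative of islet neogenesis-associated protein.

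The 6 genes lie within 98.2 kb of mouse chromosome 6 (GRCm38, 78370657 to 78468872), all annotated as protein coding. In order along the chromosome they are Reg3b, Reg3d, Reg3a, Reg2, Reg1 and Reg3g, with Reg3d and Reg3g on the minus strand and the others on the plus strand. No other annotated gene lay inside this span. Reg1 (ENSMUSG00000059654) runs from 78422711 to 78428667, Reg2 (ENSMUSG00000023140) from 78395623 to 78408106, Reg3d (ENSMUSG00000068341) from 78375874 to 78378865 and Reg3b (ENSMUSG00000071356) from 78370657 to 78373466. The nearest gene of the table was Ctnna2, encoding a neuronal catenin, 391 kb away. Its means were 505.5 ± 49.2 in WT and 510.5 ± 48.5 in libraries labelled KO (SD, n = 4 each). The difference on the log2 scale was 0.01 ± 0.11 (SE) and did not pass (limma-trend, adjusted p = 0.944).

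**Figure D1:**
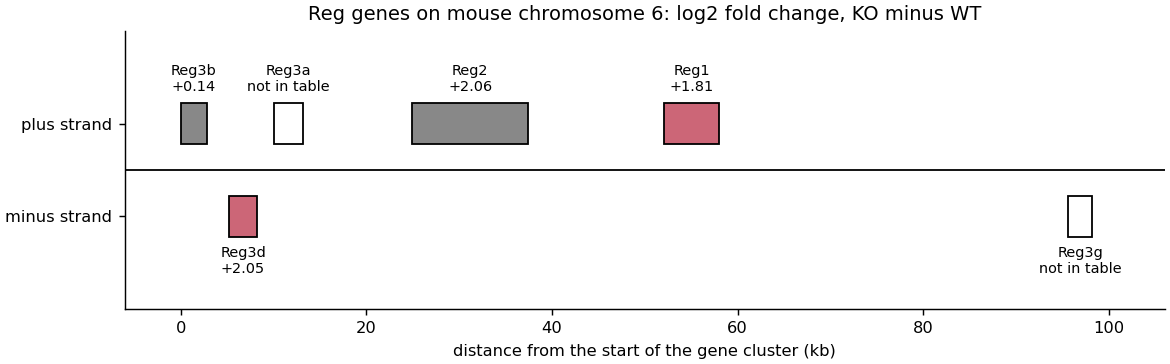
The gene cluster drawn to scale, with distance in kb from its start on the horizontal axis and the strand on the vertical one. Red boxes mark genes that passed the test (Reg1 and Reg3d), grey boxes those that did not (Reg2 and Reg3b), white boxes genes not in the table, and the numbers are log2 fold changes, KO minus WT.

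The 250 bases before the RefSeq transcript start of the 4 genes measured are shown 5′ to 3′ on the gene's strand, because 3 of these genes, Reg1, Reg2 and Reg3d, had higher mean values in the same libraries. They come from RefSeq on GRCm38.p6, at chr6:78425733-78425982 for Reg1, chr6:78404905-78405154 for Reg2, chr6:78378866-78379115 (minus strand) for Reg3d and chr6:78370635-78370884 for Reg3b. The RefSeq starts of Reg1, Reg2 and Reg3b lie inside the GENCODE gene spans given above. Capitals mark matches to 4 motifs. These are TATAAA on the given strand, CACCTG and TTTCCC on either strand (the E-box and TC-box parts of sites of PTF1, a transcription factor of acinar cells), and TTCNNNGAA (a STAT site, the same on both strands).
Reg1: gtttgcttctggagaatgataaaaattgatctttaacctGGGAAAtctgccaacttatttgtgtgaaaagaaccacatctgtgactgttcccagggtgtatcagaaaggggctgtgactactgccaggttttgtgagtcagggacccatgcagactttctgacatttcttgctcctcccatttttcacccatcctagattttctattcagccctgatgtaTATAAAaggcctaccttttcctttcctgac
Reg2: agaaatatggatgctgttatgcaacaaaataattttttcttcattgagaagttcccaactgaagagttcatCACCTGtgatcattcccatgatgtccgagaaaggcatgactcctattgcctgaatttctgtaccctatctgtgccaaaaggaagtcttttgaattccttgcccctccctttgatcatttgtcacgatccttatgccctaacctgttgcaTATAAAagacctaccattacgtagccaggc
Reg3d: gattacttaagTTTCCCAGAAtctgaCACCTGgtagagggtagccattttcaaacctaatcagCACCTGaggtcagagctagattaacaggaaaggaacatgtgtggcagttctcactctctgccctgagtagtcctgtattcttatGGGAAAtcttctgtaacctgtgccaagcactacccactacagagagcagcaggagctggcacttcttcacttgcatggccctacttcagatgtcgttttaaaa
Reg3b: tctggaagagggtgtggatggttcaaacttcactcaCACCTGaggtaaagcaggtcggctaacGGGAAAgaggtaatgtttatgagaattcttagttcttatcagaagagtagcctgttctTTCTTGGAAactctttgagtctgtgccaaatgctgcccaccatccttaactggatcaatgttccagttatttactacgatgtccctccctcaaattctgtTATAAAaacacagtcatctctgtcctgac
A TATAAA match lay 30 bases before the start in Reg1 and Reg2 and 29 bases before it in Reg3b, and was not in the Reg3d window. Of 32851 RefSeq promoters of the same length, a set not limited to the genes measured here, 7.59% held it. CACCTG was in Reg2, Reg3b and, at 2 places, Reg3d, against 17.2% of all promoters. TTTCCC was in Reg1, Reg3b and Reg3d (21.9% of all), and TTCNNNGAA in Reg3b and Reg3d (7.02% of all), where the Reg3d match overlaps one to TTTCCC. The windows of Reg3a and Reg3g were searched too. CACCTG was in that of Reg3a, and TTTCCC and TATAAA were in that of Reg3g. Such matches describe letters and are not evidence of binding.

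**Figure D2:**
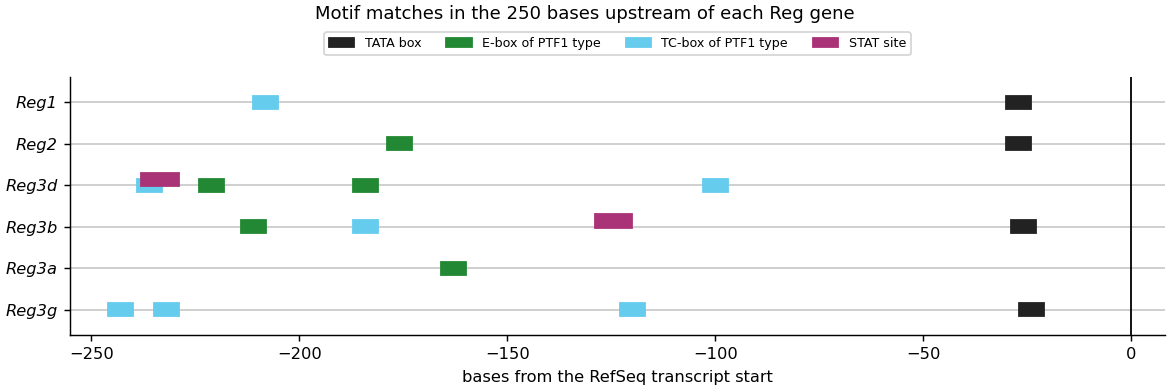
Positions of motif matches in the 250 bases before the transcript start of the 6 genes, as bases from the start. Black boxes mark TATAAA, green CACCTG, light blue TTTCCC and purple TTCNNNGAA, and TATAAA sits within 30 bases of the start in 4 of the 6 genes.

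The members are related in sequence but not near-identical. The longest shared run between any 2 of the 4 measured transcripts (the first annotated one of each gene) was 19 bases, between Reg1 and Reg2, which were 79.7% identical over 674 aligned bases. Reg3b and Reg3d were 66.9% identical, and Reg1 and Reg3b 60.2%. No run of 50 bases was shared by any pair of the 6 genes. The length of the reads is not given in the sources used here, so shared reads were not estimated.

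As facts of the whole series, the deposited values are normalized counts rounded to whole numbers, which summed to between 32024139 and 34858983 per library. Sequencing depth is unknown. The islet hormones Ins1, Ins2, Iapp, Gcg, Sst and Ppy were present in all libraries, and with Chga, a granule protein gene, they summed to 6145839 to 6881976 in WT and 5109513 to 5763526 in libraries labelled KO. Ern1, the targeted gene, was higher in libraries labelled KO (5549, 5164, 4622 and 4500 in WT1 to WT4, and 7223, 7390, 6922 and 7216 in KO1 to KO4). This total over all exons does not check the deletion, so all directions rest on the labels. Libraries numbered 3 and 4 of both labels stood apart from those numbered 1 and 2, and no label records why. Fos, an immediate early gene, lay between 2418 and 7668 in the latter and between 33359 and 99042 in the former. Results are therefore given within these sets as well. The sets were read from these same data, so a p-value between them is not an independent test of the split. The design text gives 4 mice per genotype, and the libraries are taken as 1 mouse each.

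Reg1 was by far the most abundant member and was higher in libraries labelled KO. Its normalized counts were 827, 1081, 4226 and 1922 in WT1 to WT4 and 3165, 6314, 10543 and 5164 in KO1 to KO4. All KO-labelled libraries but KO1 lay above the highest WT library, WT3, and each KO-labelled library exceeded the WT library of its own number. The means were 2014 ± 1547 and 6296.5 ± 3115.7 (SD, n = 4 each), 3.13-fold apart. The log2 fold change, on the log2(value + 1) scale, was 1.81 ± 0.52 (SE), and it passed the threshold of 0.05 over all 14121 genes tested (limma-trend, adjusted p = 0.0376). With the replicate number as a block the adjusted p was 0.0022 (limma-trend). Same-numbered libraries deviated together over all genes, but no such value is given for different numbers, so pairing by number is an assumption. These are whole islets with some exocrine tissue, so more cells of a type and more RNA per cell cannot be told apart.

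Reg3d had the same direction at a level far below that of Reg1. Its normalized counts were 15, 9, 72 and 27 in WT1 to WT4, and 65, 115, 155 and 79 in KO1 to KO4. As for Reg1, WT3 was the highest WT library and was the one that overlapped with the KO-labelled libraries, lying above KO1 alone. The means were 30.8 ± 28.5 and 103.5 ± 40.3 (SD, n = 4 each), 3.37-fold apart. Reg3d rose by 2.05 ± 0.58 on the log2 scale (adjusted p = 0.0363, limma-trend), and it was higher in the KO-labelled library in 4 of 4 same-numbered pairs.

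Reg2, the lithostathine gene closest in sequence to Reg1, did not pass the test as planned. Its normalized counts were 2, 57, 35 and 17 in WT1 to WT4, and 37, 80, 164 and 66 in KO1 to KO4. The WT values spanned 28.5-fold, with WT1 by far the lowest and WT2 above KO1. The means were 27.8 ± 23.7 and 86.8 ± 54.5 (SD, n = 4 each), with a log2 fold change of 2.06 ± 0.87 (adjusted p = 0.126, limma-trend). With the replicate number as a block it passed (adjusted p = 0.0251), the KO-labelled library being higher in 4 of 4 pairs by 3.66, 0.48, 2.2 and 1.9 on the log2 scale. In the authors' deposited table its FDR was 0.0461.

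Reg3b was the member without a direction. Its normalized counts were 2, 107, 37 and 27 in WT1 to WT4, and 22, 21, 55 and 17 in KO1 to KO4. The highest and the lowest value of all 8 libraries were both WT libraries, WT2 and WT1. The log2 fold change was 0.14 ± 0.97 (adjusted p = 0.939, limma-trend), while the mean was lower in libraries labelled KO (28.8 ± 17.6) than in WT (43.2 ± 45.0, SD, n = 4 each). The authors' deposited table gave -0.58 with an FDR of 0.605. The KO-labelled library was higher in 2 of 4 pairs. Leaving out WT1 turned the log2 fold change to -0.86 (adjusted p = 0.342) and leaving out WT2 moved it to 0.86 (adjusted p = 0.569).

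**Figure D3:**
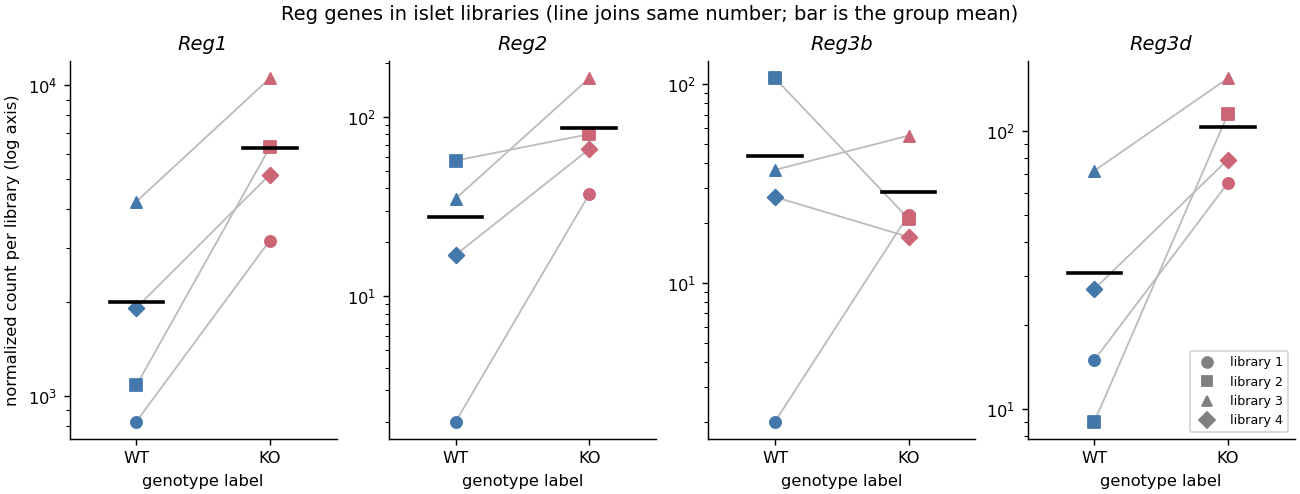
Normalized count of each measured Reg gene in each library (log axes with different ranges), by genotype label, with a line between libraries of the same number and a black bar at the group mean. All 4 lines climb for Reg1, Reg2 and Reg3d, and 2 of 4 for Reg3b, whose highest and lowest points are both WT libraries.

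Of the 4 members measured, 2 were called higher and none lower (limma-trend, adjusted p under 0.05). Over all genes tested the test called 11.1% higher and 9.81% lower. Of those calls 53.0% were higher, against 63.2% when totals were set without hormone and mitochondrial genes and 63.8% when set without acinar and Reg genes, where Reg1 and Reg3d stayed called and Reg2 and Reg3b did not pass. With the replicate block 3 members were higher, against 14.2% of all genes. By the FDR in the authors' deposited table, with 0.05 as the limit, Reg1 (log2 fold change of 1.83), Reg3d (2.0) and Reg2 (1.55) were higher too, and 16.2% of its genes were higher. No member had all KO-labelled libraries above all WT libraries, a pattern found in 13.6% of genes tested. In Reg1, Reg2 and Reg3d, 3 of 4 KO-labelled libraries lay above the highest WT library.

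The calls of Reg1 and Reg3d were close to the threshold. In the fit without the block, Reg1 passed when WT3 or KO1 was left out, and its adjusted p was 0.087, 0.0957 and 0.0541 without WT1, WT2 and WT4 and 0.0786, 0.0924 and 0.0737 without KO2, KO3 and KO4. Reg3d passed without WT3 alone, and its adjusted p was 0.0858, 0.0778 and 0.0526 without WT1, WT2 and WT4 and from 0.0533 (without KO1) to 0.0959 (without KO3) for the KO-labelled libraries. With the block and both libraries of any 1 number left out, Reg1 (highest adjusted p = 0.0070) and Reg3d (highest adjusted p = 0.0315) passed each time. Reg2 passed then without pair 1 or 2, and not without pair 3 (adjusted p = 0.093) or pair 4 (adjusted p = 0.058).

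Reg1 was also higher in libraries 3 and 4 than in libraries 1 and 2, sets read from these same data. With genotype in the model the log2 difference was 1.16 ± 0.34 (SE, adjusted p = 0.0488, limma-trend), where 9.38% of all genes tested were higher. That call was lost without any 1 library other than KO2 or KO4 (highest adjusted p = 0.132, without KO3). The differences of Reg3d (1.10 ± 0.45, adjusted p = 0.136), Reg2 (0.94 ± 0.80, adjusted p = 0.476) and Reg3b (0.68 ± 0.93, adjusted p = 0.674) did not pass. In libraries 1 and 2 alone the KO minus WT log2 fold change was 2.24 for Reg1 and 2.79 for Reg3d, and both passed (adjusted p = 0.0052 and 0.0094, limma-trend). In libraries 3 and 4 alone it was 1.37 for Reg1 (adjusted p = 0.0489) and 1.31 for Reg3d, which did not pass (adjusted p = 0.0998). Reg2 was at 2.07 in libraries 1 and 2 (limma-trend, adjusted p = 0.276). It was at 2.05 in libraries 3 and 4 and passed there (adjusted p = 0.0273). Each fit within a set holds 2 libraries per label, so a pass in 1 set alone rests on few libraries. The difference between the sets was itself tested and passed for none of the 4 members (lowest adjusted p = 0.328, for Reg3d), and for 0.0991% of all genes.

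**Figure D4:**
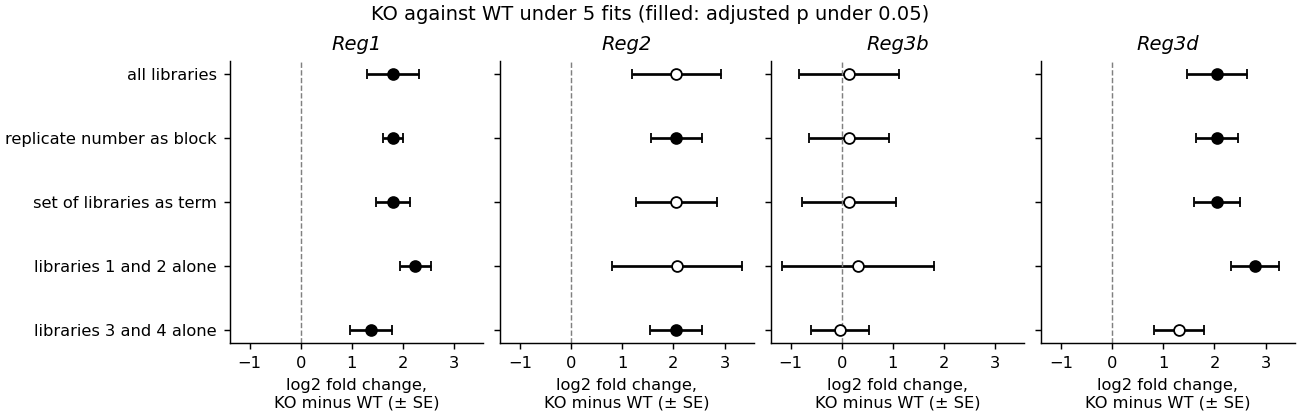
Log2 fold change (KO minus WT) with its standard error for each member under 5 fits, with filled points for an adjusted p under 0.05. Reg1 is filled in all 5 fits, Reg3d in 4, Reg2 in 2 and Reg3b in none.

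The members were then compared with each other. Per kb of annotated exon, Reg1 had a mean level of 2228 ± 1711 in WT and 6965 ± 3447 in libraries labelled KO (SD, n = 4 each), and its lowest library, at 915, lay above every library of every other member. In WT, Reg3d (39.3 ± 36.4), Reg3b (37.9 ± 39.4) and Reg2 (29.1 ± 24.9) followed with overlapping ranges. Per kb of the longest transcript the WT order of these 3 changed to Reg3b (55.2), Reg2 (39.8) and Reg3d (39.3), so their order in WT is not settled. In libraries labelled KO the order was Reg3d (132.4 ± 51.5), Reg2 (91.1 ± 57.3) and Reg3b (25.2 ± 15.4). The ranges of Reg3d (83.1 to 198.2) and Reg3b (14.9 to 48.2) did not overlap. Nor did they per kb of the longest transcript (83.1 to 198.2 and 21.7 to 70.2). The range of Reg2 (38.9 to 172.3 per kb of annotated exon) overlapped both, so its place in this order is not settled. Reg1 made up 86.2% of the summed Reg values in WT2 and between 96.2% and 97.8% in the other libraries. In WT2, Reg3b took 8.53% and Reg2 4.55%, against at most 1.35% and 1.5% elsewhere. All 4 members together were 0.0024% to 0.0130% of the total in WT and 0.0097% to 0.0320% in libraries labelled KO.

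The ratio of 2 members within a library tells whether they changed alike. The log2 ratio of Reg2 to Reg3b was -0.40 ± 0.43 in WT, where no library was above 0, and 1.51 ± 0.55 in libraries labelled KO, where none was below 0.72 (SD, n = 4 each). The difference of 1.92 had the smallest p that 4 against 4 libraries allow (exact two-sided permutation test, p = 0.0286) and did not pass over the 6 pairs compared (adjusted p = 0.171). A pair that reaches that p alone cannot pass this adjustment. The ratio of Reg1 to Reg3b differed by 1.66 (exact permutation p = 0.114, adjusted p = 0.343) and that of Reg3b to Reg3d by -1.91 (exact permutation p = 0.171, adjusted p = 0.343). Among Reg1, Reg2 and Reg3d the differences lay between -0.25 and 0.01 (exact permutation test, lowest adjusted p = 0.686), and all 3 changed sign with a pseudocount of 10. With that pseudocount the ratios with Reg3b differed by 1.92 (Reg1 to Reg3b), 1.58 (Reg2 to Reg3b) and -1.77 (Reg3b to Reg3d). Each then had the smallest possible p (exact permutation p = 0.0286) and did not pass (adjusted p = 0.0571). The log2 ratio of Reg1 to Reg3d had the smallest spread among WT libraries of the ratios with Reg1, 6.10 ± 0.47 in WT and 5.86 ± 0.23 in libraries labelled KO, whereas that of Reg1 to Reg2 was 6.49 ± 1.63 and 6.23 ± 0.16.

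The genes nearest in profile were then read for each member. Likeness was the root mean square difference of mean-centred log2 values over the 8 libraries, among genes with a mean value of at least 100, and it is given as a description. The genes most like Reg1 were Try5, a trypsinogen gene (0.33), and the pancreatic lipase-related genes Pnliprp1 (0.34) and Pnliprp2 (0.38). For Reg3d they were Pnliprp2 (0.25), Gp2, of the zymogen granule membrane (0.29), and Serpini2, a pancreatic serpin gene (0.31), and Reg1 and Reg3d were at 0.34 from each other. Reg2 had no gene as near, the first being Nupr1, a stress-response chromatin protein gene (0.78), then Col1a1, of collagen (0.92), and Tnc, of tenascin C (0.92). Reg3b was nearest to Tnc (0.69), Synm, an intermediate filament gene (0.87), and Pgm5 (0.91). Pnliprp2 was thus among the nearest genes of both Reg1 and Reg3d, and Tnc among those of both Reg2 and Reg3b. Reg2 and Reg3b each had a value of 2 in WT1, whereas the genes compared had a mean of at least 100. Low counts therefore weigh on the profiles of Reg2 and Reg3b, and their part in these distances was not tested.

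Acinar markers were measured in the same libraries. Of 38 acinar genes listed, 31 were tested, of which 30 had a positive log2 fold change, 2 rose (Prss3, a trypsinogen, and Try5), 1 fell (Bhlha15, a transcription factor of secretory cells) and 28 did not pass, with a median of 1.62 against -0.00082 over all genes tested. Over all genes tested 11.1% rose and 9.81% fell. No acinar gene in the table was at 0 in any library. With the replicate block, where 14.2% of all genes rose, 10 acinar genes rose and 1 fell. Their summed value was 94150, 36656, 428059 and 201624 in WT1 to WT4 and 223748, 535969, 661293 and 326881 in KO1 to KO4. WT2 was thus the lowest library and KO3 the highest, and WT3 lay above KO1 and KO4. In order of rising acinar sum the libraries were WT2, WT1, WT4, KO1, KO4, WT3, KO2 and KO3, and Reg3d followed that order except that KO4 and WT3 changed places.

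Reg1 was 0.878%, 2.95%, 0.987% and 0.953% of the acinar sum in WT1 to WT4 and 1.41%, 1.18%, 1.59% and 1.58% in KO1 to KO4. The log2 change of this share was 0.20, which did not pass (exact permutation test, p = 0.714, adjusted over the 4 members 0.743). For Reg3d it was 0.44 (exact permutation p = 0.114, adjusted p = 0.457), with a share of 0.0177% ± 0.0048 in WT and 0.0245% ± 0.0032 in libraries labelled KO (SD, n = 4 each). For Reg2 it was 0.45 (exact permutation p = 0.743) and for Reg3b -1.47 (exact permutation p = 0.429). WT2, the library with the lowest acinar sum, held the highest share of all 8 libraries for Reg1, Reg2 and Reg3b, and these values rest on it. Without WT2 every KO-labelled share of Reg1 (1.18% to 1.59%) lay above every WT share (0.878% to 0.987%), and the change of Reg1 was 0.61 (exact permutation p = 0.0571, adjusted p = 0.0762). Reg2 then stood at 1.62 and Reg3d at 0.63, each with the smallest p that 4 against 3 libraries allow (exact permutation p = 0.0286, adjusted p = 0.0571), and Reg3b at -0.14 (exact permutation p = 0.83). Without WT1 the change was 0.03 for Reg1, -0.26 for Reg2 and -2.31 for Reg3b. Without WT3 or WT4 it was 0.08 and 0.06 for Reg1 and 0.21 and 0.23 for Reg2. No member passed after adjustment in any of these fits. Adjusted over the 4 members, the smallest possible p passes only if most members reach it together, so the lack of a pass decides little. The part of acinar RNA in the Reg differences was not tested beyond these shares.

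**Figure D5:**
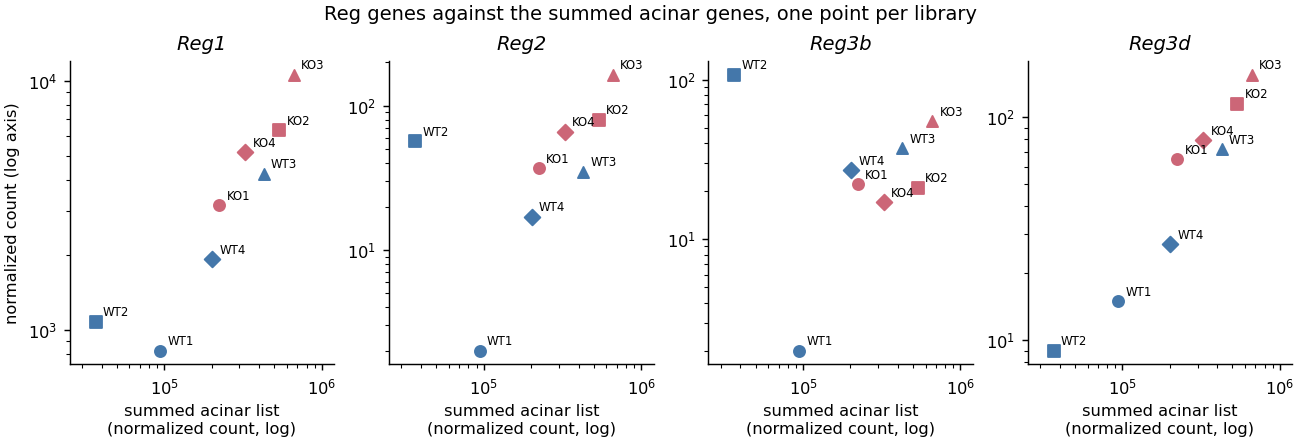
Normalized count of each Reg gene against the summed value of the acinar list, both on log axes, with 1 point per library (blue WT, red KO, the shape giving the library number). Reg1 and Reg3d climb with the acinar sum, while WT2, with the lowest sum, holds the highest Reg3b value.

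Markers of other cells were read too. Over all genes tested 11.1% rose between labels and 9.81% fell, and with the replicate block 14.2% rose. Of 19 tested ductal genes 9 rose and none fell, with a median log2 fold change of 1.13. With the replicate block 10 rose, and Muc1, a mucin gene, no longer passed (adjusted p = 0.0522, limma-trend). Spp1, encoding osteopontin, had values of 1500, 1030, 951 and 1468 in WT1 to WT4 and 19589, 6547, 9377 and 10277 in KO1 to KO4 (log2 fold change of 3.12, adjusted p = 0.000337, limma-trend). The ductal sum was 23060 to 39653 in WT and 40411 to 64461 in libraries labelled KO, and was highest in KO1, the KO-labelled library with the lowest Reg1, Reg2 and Reg3d. Of 22 tested leukocyte genes 1 rose (Mrc1, a macrophage receptor) and 1 fell (Cd79a, of the B cell receptor), with a median of -0.0045 and sums of 6464 to 18795 in WT and 7628 to 13301 in libraries labelled KO. The T cell genes Cd3d, Cd3e, Cd3g and Cd8a were not analysed here. None of 14 stellate and endothelial genes passed, 5 of them rose with the block, and their median was 0.37. None of 8 immediate early genes passed between labels. All 8 were higher in libraries 3 and 4, against 9.38% of all genes tested. They include Fos, which was used above to show the split. Of the 7 islet endocrine genes Gcg, Ppy and Sst rose and Ins1 and Ins2 fell, and with the replicate block Ins2 did not pass (adjusted p = 0.104, limma-trend). The part of these cells in the Reg differences was not tested.

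Genes of the cytokine route to Reg induction were mostly present. Over all genes tested 11.1% rose between labels and 9.81% fell. Of 22 tested genes of IL-6 and IL-22 family receptors and STAT3 signalling, 1 rose, 4 fell and 17 did not pass, with a median log2 fold change of -0.15. Il6st, encoding the shared receptor subunit gp130, rose from 7047 ± 805 to 9340 ± 727 (SD, n = 4 each; log2 fold change of 0.41, adjusted p = 0.0198, limma-trend). Lifr, encoding the receptor of leukaemia inhibitory factor, fell by 0.63 on the log2 scale (adjusted p = 0.0090), Jak1, a receptor-bound kinase gene, by 0.48 (adjusted p = 0.0031), and Ptpn11, of the phosphatase SHP2, by 0.43 (adjusted p = 0.0091). Tyk2, another kinase gene of this route, fell too. Tyk2, Stat3, Socs3 and Il6 fall outside the rule for named genes and were chosen after their values were seen. On the log2 scale the change of Stat3 was -0.27 (adjusted p = 0.305). That of Socs3, the feedback inhibitor of STAT3, was -0.13 ± 1.58 (SE, adjusted p = 0.965). Il6 had means of 293 ± 345 in WT and 543 ± 741 in libraries labelled KO (SD, adjusted p = 0.878). Socs3 (by 4.66, adjusted p = 1.6e-05) and Il6 (adjusted p = 5.6e-06) were higher in libraries 3 and 4 than in 1 and 2. These sets were read from the data, so those p-values are not independent tests of the split. With the replicate block neither Socs3 nor Il6 passed between labels (limma-trend, adjusted p = 0.782 and 0.137). With values so spread within each label, these tests do not show Socs3 or Il6 to be unchanged. In libraries 3 and 4, 12 of the 22 were higher than in libraries 1 and 2, against 9.38% of all genes tested. Il22, its receptor gene Il22ra1 and Il11 were not analysed here.

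Extl3, encoding a glycosyltransferase that has been proposed as a Reg receptor, had values of 1759, 1829, 1651 and 1465 in WT1 to WT4 and 1751, 1693, 1657 and 1559 in KO1 to KO4. Its groups overlapped fully, with a log2 fold change of -0.01 ± 0.09 (adjusted p = 0.971, limma-trend). Of the other genes listed with it, Cck, encoding cholecystokinin, rose from 1.00 ± 0.82 to 35.2 ± 21.1, Gast, encoding gastrin, from 9.25 ± 4.35 to 33.0 ± 12.1 and Cckar, the receptor of cholecystokinin on acinar cells, from 117.5 ± 49.3 to 352.2 ± 60.8 (SD, n = 4 each; adjusted p = 0.0049, 0.0294 and 0.0060, limma-trend). The Cck value in WT4 was 0, so its fold change depends on the pseudocount and is not given. Reg4, a further relative, and Cckbr, the gastrin receptor gene, were not analysed here.

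Of 20 secreted antimicrobial and acute phase genes, companions of the Reg3 proteins in mucosal defence, 4 were tested and 3 passed, in different directions. Over all genes tested 11.1% rose and 9.81% fell. Lcn2, encoding lipocalin 2, had values of 19, 25, 31 and 34 in WT1 to WT4 and 667, 99, 119 and 84 in KO1 to KO4 (log2 fold change of 2.55, adjusted p = 0.0176, limma-trend). The highest of these, KO1, was the KO-labelled library with the lowest Reg1. Pigr, of the polymeric immunoglobulin receptor, rose by 0.68 on the log2 scale (adjusted p = 0.0231). Defb1, a defensin gene, fell by 2.77 (adjusted p = 0.0022), with values of 1226 to 2709 in WT and 123 to 490 in libraries labelled KO. All KO-labelled libraries lay below all WT libraries for Defb1, whereas no Reg gene separated the labels fully.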

How the data were processed

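Bulk RNA sequencing of islets from 8 mice, 4 per genotype label, was analysed from 1 table made by the authors. Per the submitters' processing notes, bcl2fastq 2.20, STAR 2.5.3a, RSEM 1.2.31, edgeR 3.16.15 and the build GRCm38.p5 were used. The deposited values are a score, namely normalized counts rounded to whole numbers, so raw counts and depth are unknown and no count model was run. The authors' deposited log2 fold changes, log2 CPM, ratio statistics, p-values and FDR are quoted only where named as theirs.

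Values were tested on the log2(value + 1) scale with limma-trend 3.58.1 (R 4.3.3) over the 14121 genes that reached 1 in 4 or more libraries, with genotype as the only term and Benjamini-Hochberg adjustment at 0.05. All 4 members in the table passed this filter. Differences between members and shares of the acinar sum were tested over all 70 assignments of the libraries. The code was tested on simulated data. Alternatives were other pseudocounts, filters, totals and variance settings, the replicate block, the set of libraries, and leaving out libraries. Levels per kb used the union of annotated exons, with the longest transcript as an alternative. The block with a pair left out and the division by the acinar sum, with its left-out libraries, were chosen after seeing the data. Same-numbered libraries of both labels deviated together from their group means (r = 0.327, 0.583, 0.664 and 0.381 for numbers 1 to 4, over 13081 genes). On this basis the numbers were taken to pair the libraries, which is an assumption. No such value is given for libraries of different numbers, and numbers 3 and 4 of both labels stood apart from 1 and 2. These values therefore cannot tell pairing by number from that split, and results with the block rest on the assumption. The pairing is read from the data, and the labels give only the numbers.

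The members and the 9 gene lists were chosen with earlier results of these data known. Genes named were the members, Ern1, Fos, Extl3, Reg4, genes within 1 Mb of the cluster, up to 4 called genes per list, taken by size of change (for a list without calls, its 2 most abundant genes), and the 3 genes most like each member. Further genes, among them Tyk2, Stat3, Socs3 and Il6, were named outside this rule. Gene positions are from GENCODE M21 on GRCm38, where 14114 of 14126 identifiers were found, and promoters from RefSeq on GRCm38.p6. No value column was left without a library (0).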

Additional observations from a re-analysis of the deposited data

Results flagged for a closer look

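Reg3b in KO3 had a normalized count of 55, apart from the other libraries labelled KO (22, 21 and 17). The gap to the nearest of them was 0.868 of the range of the group, above Dixon's critical value for 4 samples. For normally distributed values chance marks about 1 in 20 groups in this way, and 8 groups were examined. The check used the counts themselves and was not run on the log2 scale of the other tests. Without KO3 the log2 fold change of Reg3b was -0.21 (adjusted p = 0.918, limma-trend).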

How the results depend on the processing

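Between labels, Reg1 ranged over 1.48 to 2.26 on the log2 scale with 1 library left out, Reg2 over 1.19 to 2.61, Reg3d over 1.63 to 2.58 and Reg3b over -0.86 to 0.86. Reg1 did not pass with the variance trend off (1.81, adjusted p = 0.0563), nor Reg3d in libraries 3 and 4 alone (1.31). The replicate block brought Reg2 past the threshold (2.06, adjusted p = 0.0251), as did libraries 3 and 4 alone (2.05) and the block without pair 1 (1.52) or pair 2 (2.59). The block changed no other member's call. Shares of the acinar sum were tested by exact permutation, which passes after adjustment only if most members reach its smallest p. By that test Reg1 (0.20) and Reg3d (0.44) did not pass, and Reg3b reversed (-1.47). With 1 library left out these shares changed by 0.03 to 0.61 for Reg1, -0.26 to 1.62 for Reg2 (reversed without WT1, -0.26), 0.31 to 0.63 for Reg3d and -2.31 to -0.14 for Reg3b, where WT2 set the highest value of each. Reg3b also reversed with a pseudocount of 10 (-0.12), in libraries 3 and 4 alone (-0.039), without WT1 (-0.86) or KO3 (-0.21) and in the block without pair 1 (-0.79). With a pseudocount of 10 the differences of Reg1 to Reg2 (0.34), Reg1 to Reg3d (0.15) and Reg2 to Reg3d (-0.18) changed sign.

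Between sets of libraries, leaving out 1 gave 0.84 to 1.45 for Reg1, 0.08 to 1.79 for Reg2, 0.67 to 1.44 for Reg3d and -0.39 to 1.68 for Reg3b, which reversed without WT1 (-0.39). Between labels, genes higher numbered 2400 with the set as a term and 896 in the block without pair 3, and genes lower 2102 with the set as a term and 777 and 655 in the block without pairs 2 and 3. Leaving out 1 library gave 1121 to 1684 higher and 863 to 1599 lower, and between sets 890 to 1262 higher and 433 to 776 lower. Genes lower between sets numbered 1324 with totals set without hormone and mitochondrial genes. Apart from fits with fewer libraries, the cause was not tested. Rounding limits Reg2, Reg3b and Reg3d, whose lowest values were 2, 2 and 9.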
